A study of Homo sapiens with 4 samples.

Results

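The genes examined here encode the machinery that docks, primes and fuses synaptic vesicles and dense-core granules. Members were taken by symbol from the protein-coding genes of GENCODE 44: the synaptotagmins (SYT), synapsins (SYN1 to SYN3), syntaxins (STX), VAMP1 to VAMP8, the RAB3 GTPases, complexins (CPLX), UNC13 and RIMS families, the SV2 glycoproteins, SNAP23, SNAP25, SNAP29 and synaptophysin (SYP), leaving out the syntaxin-binding proteins. Of 69 matching records, 68 were found by Ensembl identifier among the 64252 rows of the count table, and the remaining record was a second copy of VAMP7. Membership was decided by symbol and not by a measured value, but the families were chosen with earlier results of these data known. Transcripts were counted by RNA-seq in SK-N-BE(2), an established human neuroblastoma line with amplified MYCN, whose cells carried scramble shRNA (sh-Scb, 2 libraries) or sh-SAPCD2 (2 libraries). The study's methods describe infection with lentivirus and selection with puromycin, so each group was a population of stably infected cells of a single line. The labels do not say whether the libraries of a group came from separate infections or cultures. P-values therefore measure the spread between these libraries, which may be technical. The labels do not say which SAPCD2 hairpin was used, whereas a heat map of the study names its hairpin #1.

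Fusion at a synapse is carried out by SNARE proteins. A SNARE on the vesicle (VAMP) pairs with a syntaxin and a SNAP25-type protein on the plasma membrane, the UNC13 and RIM proteins and RAB3 bring the vesicle into a primed state at the active zone, complexins hold and then assist the assembled SNAREs, and synaptotagmins sense the calcium that triggers release. Neuroblastoma arises from the sympathoadrenal lineage, whose cells also store peptides and catecholamines in dense-core granules and release them with many of the same proteins.

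Sequences of 2 kinds are shown first, because they lie in genes whose levels are given below. The first set comes from promoters, taken from RefSeq (GRCh38.p14) as the 250 bases upstream of each annotated start, which were found for 54 of the 68 members and searched on both strands. SYN1 (synapsin 1, which tethers vesicles in the reserve pool) carried TTCAGCACC followed 2 bases later by GGACAG, the core of RE1, the element bound by the neuronal repressor REST. Among all 35116 promoters in that table, 0.0142% held this pair at this spacing, and no other member's did. The same promoter held TGACGTCA, the full cyclic AMP response element, which 1.65% of promoters held and which otherwise occurred among members only in STX12. In the lines below, capitals mark the matched letters, read on the gene's own strand.
SYN1, RE1 match, chrX:47620054-47620107, minus strand: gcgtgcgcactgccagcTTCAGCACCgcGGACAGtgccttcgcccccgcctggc
SYN1, cyclic AMP response element, chrX:47619989-47620036, minus strand: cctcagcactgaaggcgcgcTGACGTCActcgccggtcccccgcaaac

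CACGTG, the E-box bound by MYC family proteins, was present in 6.34% of all promoters and in 13.2% of the 76 promoter records of members. These records belonged to 9 members (16.7% of the 54, against 7.73% of all genes in the promoter table). Members had more promoter records per gene (76 for 54 genes, against 35116 for 27305). The wider set was not restricted to protein-coding genes, and the differences in share were not tested. Of the 9, UNC13A, CPLX3 and STX4 were higher in sh-SAPCD2 cells in the test described below, STX2 was lower, and SNAP29, STX6, STX18, SYT6 and SYT14 were not called. Of all tested genes 12.4% were higher and 12.5% lower, and of the tested members 20.7% and 13.8%. With so few carriers no difference from these shares was tested. Only the 3 genes called higher are printed, a choice made by the calls, and the match of STX2 is left out. The printed lines therefore do not link the motif to a direction, and whether it bears on any level was not tested. CPLX3 held a pair of matches in its promoter, and STX18 had matches upstream of separate starts.
UNC13A, chr19:17688553-17688598, minus strand: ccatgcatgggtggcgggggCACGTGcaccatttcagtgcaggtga
CPLX3, first match, chr15:74826428-74826473, plus strand: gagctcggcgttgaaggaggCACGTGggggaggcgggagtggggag
CPLX3, second match, chr15:74826458-74826503, plus strand: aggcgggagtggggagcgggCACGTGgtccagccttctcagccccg
STX4, chr16:31033276-31033321, plus strand: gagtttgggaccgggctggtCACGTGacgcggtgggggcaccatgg
Matches to TTTCCCGC, an E2F site, occurred in SNAP29 and SV2C (1.39% of all promoters) and those to TTTGGCGC, another E2F site, in no member (0.55% of all promoters). A match is a description of these letters in this window and says nothing of binding.

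The second set concerns the hairpin. The antisense arm of sh-SAPCD2 #1 from the study's supplement is printed with bases 5 to 11 in capitals, which are complementary to TCCACCT. It was chosen after values of these libraries had been seen, together with the 7-mer AGAGGTC, the 7-mer CCACCTA and the 7-mer GAGGTCA, so their occurrence gives no independent support to anything. Among these 7-mers only TCCACCT is complementary to the printed arm over its full length. The canonical 3′ untranslated regions of CPLX2 and RIMS3, the members with the largest decreases, held 4 and 6 separate matches to the set. Their TCCACCT matches are shown with the 8 bases on either side (hg38).
Antisense arm: atgaAGGTGGAatccagaggt
CPLX2, chr5:175880061-175880083, plus strand: cagcctacTCCACCTgttactac
CPLX2, chr5:175880218-175880240, plus strand: ccagggtaTCCACCTgcacccca
CPLX2, chr5:175883572-175883594, plus strand: ccctgctgTCCACCTgctccatc
RIMS3, chr1:40624920-40624942, minus strand: gcactcttTCCACCTctctccag
RIMS3, chr1:40623962-40623984, minus strand: tccactatTCCACCTctctaaaa
RIMS3, chr1:40623510-40623532, minus strand: tttgtcatTCCACCTcctctggt
RIMS3, chr1:40622647-40622669, minus strand: agttgcccTCCACCTggctggag

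Libraries held 25347900 to 31850997 counts, and 3 counts, taken as the least that can be detected, equaled 0.0955 to 0.119 TMM-scaled CPM, the unit of all levels below unless another is named. This floor covers counting error only. SAPCD2 itself was at 83.6 and 82.2 CPM in the sh-Scb libraries and 35.4 and 52.5 CPM in the sh-SAPCD2 libraries, a log2 fold change of −0.91 ± 0.19 (SE, adjusted p = 0.0206), so the transcript fell but was not removed, and by less in replicate 2. Adrenergic neuroblastoma markers were present in all libraries, with 11 of 11 above 0, and PRRX1, SOX10, CD3E and LYZ, which mark mesenchymal, Schwann, T and myeloid cells, were at 0. All 8 proliferation markers were lower in sh-SAPCD2 cells, with summed levels of 2989 and 3031 CPM against 1427 and 1244 CPM. Of the adrenergic markers 5 were lower, among them DBH, ISL1 and STMN2, and MYCN was higher (3235 and 3178 against 5904 and 7091 CPM). Of 7 mesenchymal markers 2 were lower (VIM and FN1), and CD44, YAP1, WWTR1 and SNAI2 were not called. The summed level was 1399 and 1385 against 709 and 722 CPM, mostly VIM (1197 and 1179 against 518 and 555 CPM). In the test described below, 12.4% of all tested genes were higher and 12.5% lower, and the marker counts were not tested against these shares. The part of the marker shifts in the results below was not tested. In bulk RNA fewer cells of a kind and less RNA per cell cannot be told apart.

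Most of the machinery was transcribed in these cells. Counts of 58 members passed the filter on low counts. CPLX4, STX11 and SYT10 had no count in any library, and STX19, UNC13C, UNC13D, SYT8, SYT12, SV2B and VAMP8 had 0 to 11 counts in a library. Levels can be compared between genes only per length, here as mean CPM per kb of merged exons in the sh-Scb libraries, and 47 members were at 1 CPM per kb or more. The highest were RIMS3 (53.9 CPM per kb), a short RIM-family protein that lacks the RAB3-binding part, CPLX2 (43.2 CPM per kb), and VAMP3 (39.2 CPM per kb), the widely expressed vesicle SNARE cellubrevin. They were followed by STX10 (35.2 CPM per kb) and STX16 (26.4 CPM per kb), both SNAREs of the trans-Golgi network, and SYT11 (25.6 CPM per kb). The neuronal SNAREs were lower on this scale, with VAMP2 at 7.65, SNAP25 at 4.92 and STX1A at 4.66 CPM per kb. SNAP25 has many annotated exons, and per kb of its canonical transcript its level was 48.8 CPM, which placed it at rank 4 of the members rather than rank 30. RIMS1, the long RIM that binds RAB3 and UNC13 at most brain synapses, was scarcely detected, at 0.688 and 1.09 CPM in the sh-Scb libraries and 0.83 and 1.18 CPM in the sh-SAPCD2 libraries.

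**Figure D1:**
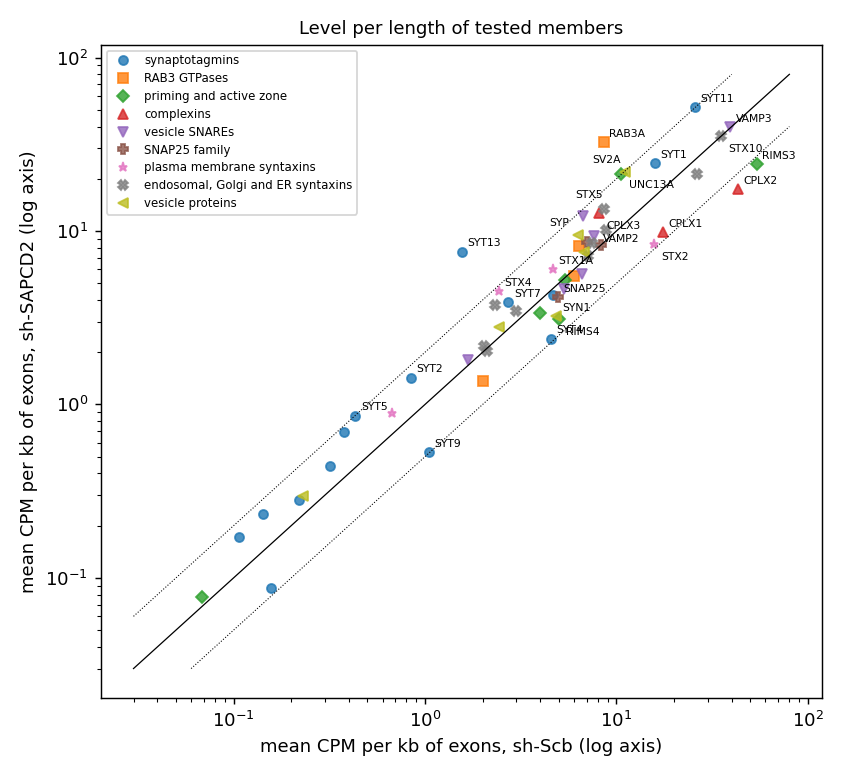
Mean CPM per kb of merged exons for tested members in sh-Scb (x axis) and sh-SAPCD2 libraries (y axis), both on log axes, with one marker shape for each role. The solid line marks equal levels and the dotted lines a 2-fold difference; SYT13 (4.88-fold) and RAB3A (3.79-fold) lie furthest above, and CPLX2 and RIMS3 below.

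In sh-SAPCD2 cells 6 synaptotagmins, RAB3A, UNC13A, SV2A, CPLX3, STX4 and STX5 were higher, CPLX1, CPLX2, RIMS3, RIMS4, STX2, SYT4, SYT9 and SYN1 were lower, and the core fusion SNAREs SNAP25, VAMP2 and STX1A did not pass the test. Each gene was tested with edgeR's quasi-likelihood test, and adjusted p is the Benjamini-Hochberg value over all 18779 genes tested. At adjusted p under 0.05, 12 of the 58 tested members were higher (20.7%) and 8 were lower (13.8%). The same calls took 12.4% and 12.5% of all tested genes, and 15.2% and 13.9% of the 13617 protein-coding ones, so the share of lower members was near the background and the share of higher members was above it, a difference that was not tested. A scarce gene can pass the filter on low counts through 1 group alone, so these shares describe the tested members only. A log2 fold change over 1 in absolute value in addition, the study's definition of a differentially expressed gene (DEG), was met by 4 higher members (6.9%, against 4.69% of all tested genes) and 2 lower members (3.45%, against 5.15%). The median log2 fold change of the tested members was 0.20 (quartiles −0.18 and 0.64), beside 0.02 over all tested genes and 0.04 over protein-coding ones. RAB3A, SYT13, SYT11, UNC13A, SV2A, CPLX2, RIMS3 and STX2 were called in the analysis as reported and in all 13 alternatives, with adjusted p of at most 0.027. The other 12 were not called once 1 or the other sh-Scb library was left out. Leaving out sh-Scb replicate 1 gave 5 higher and 4 lower members, and leaving out sh-Scb replicate 2 gave 7 and 4. With sh-SAPCD2 replicate 1 left out the counts were 19 and 13, and with replicate 2 left out they were 17 and 12.

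**Figure D2:**
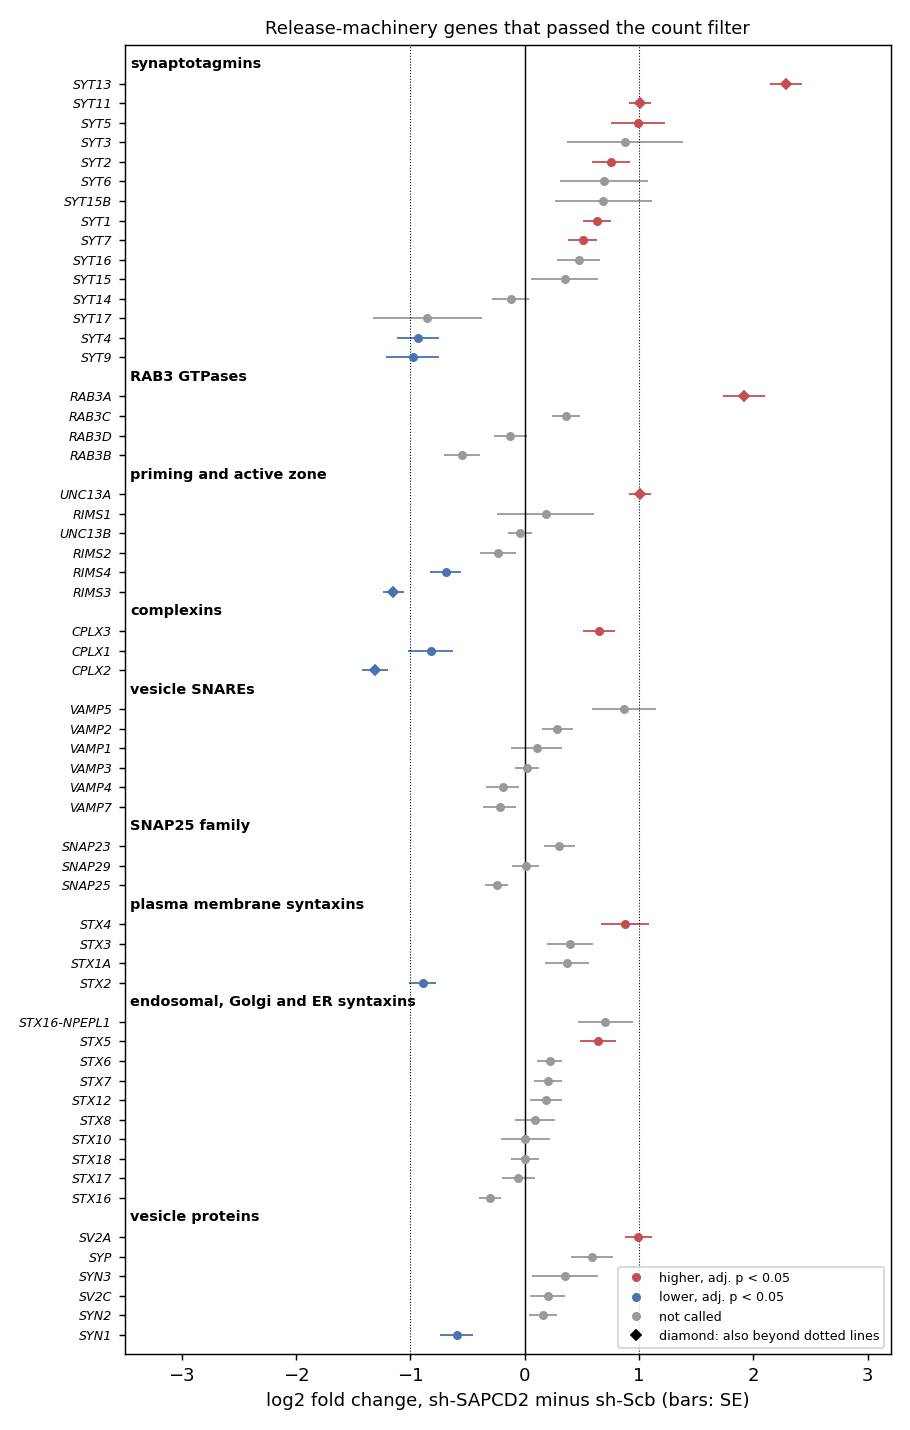
Log2 fold change (x axis, sh-SAPCD2 minus sh-Scb) of tested members (y axis), grouped by role, with bars for the standard error. Red points are the 12 members called higher, blue the 8 called lower and grey those not called; diamonds are the 6 that also passed a log2 fold change of 1, marked by dotted lines.

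Synaptotagmins, vesicle and granule proteins with paired C2 domains, are the largest family of the set. Of 18 members 15 were tested, with a median log2 fold change of 0.63. Of these, 6 were higher (40%, against 12.4% of all tested genes and 15.2% of protein-coding ones). Another 2 were lower (13.3%, against 12.5% and 13.9%). The differences from these shares were not tested, and the counts were 2 higher and 0 lower without sh-Scb replicate 1 and 3 and 1 without sh-Scb replicate 2. SYT13 (ENSG00000019505, chr11:45240302-45286341, minus strand), an atypical synaptotagmin whose C2 domains do not bind calcium, was at 8.98 and 7.995 CPM in the sh-Scb libraries and 41.9 and 40.9 CPM in the sh-SAPCD2 libraries. The groups were far apart and each was tight, and the log2 fold change of 2.29 ± 0.14 (SE, adjusted p = 0.00201) was the largest of any member. SYT11 (ENSG00000132718, chr1:155859567-155885199, plus strand), another member without calcium-dependent membrane binding, was at 135 and 131 CPM against 272 and 262 CPM (log2 fold change 1.01 ± 0.09, adjusted p = 0.00312). With this change SYT11 went from rank 6 to rank 1 in level per length of the members, at 51.6 CPM per kb. SYT4, the closest relative of SYT11, moved the other way, from 21.0 and 18.2 CPM to 11.6 and 9.01 CPM (log2 fold change −0.93 ± 0.18, adjusted p = 0.017, up to 0.0642 over the alternatives).

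The calcium sensors of fast and slow release were mostly higher. SYT1, the main sensor for synchronous release in forebrain and in chromaffin cells, was at 145 and 155 CPM in sh-Scb and 252 and 213 CPM in sh-SAPCD2 libraries (log2 fold change 0.63 ± 0.12, adjusted p = 0.0153). SYT2, its counterpart in hindbrain and at the neuromuscular junction, was at 6.66 and 6.51 against 11.3 and 10.9 CPM, and SYT7, the high-affinity sensor of asynchronous and granule release, at 20.7 and 20.5 against 29.3 and 29.2 CPM. SYT5, found on dense-core granules, was at 2.14 and 2.36 against 4.11 and 4.84 CPM, a log2 fold change of 0.99 that was just short of 1. In contrast, SYT9 fell from 4.78 and 5.23 to 2.25 and 2.80 CPM. The calls of these 5 were each lost in 3 to 5 of the 13 alternatives, among them the removal of a control library. The exons of SYT9 overlap those of the antisense gene SYT9-AS1, which was higher (8.36 and 6.72 against 18.3 and 13.3 CPM, log2 fold change 1.06 ± 0.22, adjusted p = 0.0195). Whether counting used the strand is not given in the sources used here, so reads of the 2 genes may not be separated. The exons of SYT2 likewise overlap PPP1R12B (log2 fold change 0.08). The remaining 7 tested synaptotagmins, SYT3, SYT6, SYT14, SYT15, SYT15B, SYT16 and SYT17, were not called, and all of them except SYT14 were under 7 CPM in every library.

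**Figure D3:**
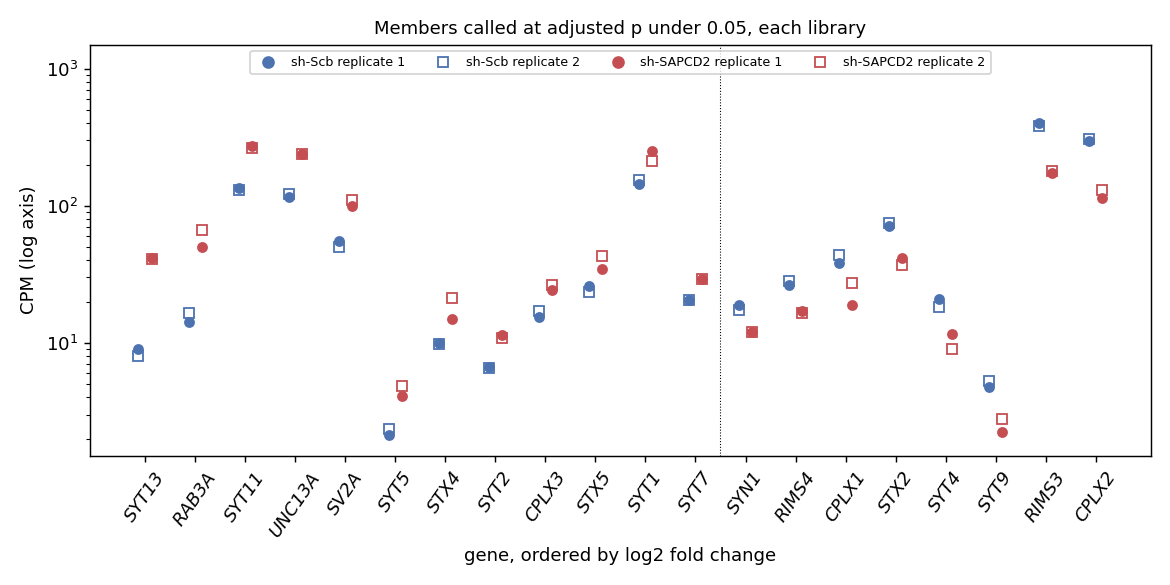
CPM (log axis) of the 20 members called at adjusted p under 0.05, in each of the 4 libraries, ordered by log2 fold change from SYT13 on the left to CPLX2 on the right. Filled circles are replicate 1 and open squares replicate 2. Left of the dotted line both sh-SAPCD2 libraries lie above both sh-Scb libraries, and right of it below. The genes were chosen by the test on these libraries, so this separation is no further support.

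RAB3A, the vesicle GTPase that binds RIM and is the most abundant RAB3 form in brain, rose while the other 3 family members did not pass the test. RAB3A (ENSG00000105649, chr19:18196784-18204042, minus strand) was at 14.3 and 16.4 CPM in the sh-Scb libraries and 49.7 and 66.6 CPM in the sh-SAPCD2 libraries. Both knockdown libraries were over 3 times the control levels, with replicate 2 the higher, and the log2 fold change was 1.92 ± 0.18 (adjusted p = 0.00316). RAB3C was at 62.9 and 60.002 against 85.6 and 72.3 CPM (adjusted p = 0.0844), RAB3D at 27.3 and 25.3 against 22.3 and 25.9 CPM (adjusted p = 0.554), and RAB3B at 24.3 and 26.8 against 19.2 and 15.8 CPM (adjusted p = 0.0518). RAB3B was called lower in 9 of the 13 alternatives. Per kb of exons, RAB3A made up 35.3% and 39.5% of the family's summed level in sh-Scb libraries and 64.3% and 71.8% in sh-SAPCD2 libraries, and the sum went from 22.7 and 23.3 to 43.3 and 51.95 CPM per kb. The exons of RAB3A overlap those of MPV17L2, which was at 12.3 and 12.9 against 8.22 and 9.84 CPM and did not pass the test (adjusted p = 0.0897).

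Among the priming and active zone proteins UNC13A was higher, RIMS3 and RIMS4 were lower, and UNC13B, RIMS1 and RIMS2 were not called. UNC13A (Munc13-1, ENSG00000130477, chr19:17601336-17688365, minus strand), which opens syntaxin 1 so that SNAREs can assemble, was at 116 and 122 CPM in sh-Scb and 239 and 237 CPM in sh-SAPCD2 libraries, a log2 fold change of 1.01 ± 0.10 (adjusted p = 0.00313). Its value was only just over 1, and scaling to library totals or testing protein-coding genes alone put UNC13A and SYT11 just under it, leaving 2 higher DEGs among members. UNC13B (Munc13-2) was not called, at 93.4 and 99.2 against 97.1 and 89.9 CPM (adjusted p = 0.796). RIMS3 (ENSG00000117016, chr1:40620680-40665682, minus strand) was at 402 and 381 CPM in sh-Scb and 173 and 180 CPM in sh-SAPCD2 libraries (log2 fold change −1.15 ± 0.10, adjusted p = 0.00257), the largest decrease in CPM of any member. RIMS4, its close relative, was at 26.3 and 28.1 against 17.2 and 16.5 CPM (log2 fold change −0.69 ± 0.13, adjusted p = 0.0158), and this call was lost when either sh-Scb library was left out. The long form RIMS2 was at 63.3 and 63.6 against 61.4 and 46.3 CPM (adjusted p = 0.31). The summed level of the 4 RIMS genes was 64.2 and 61.8 CPM per kb in sh-Scb and 30.9 and 30.9 CPM per kb in sh-SAPCD2 libraries, whereas that of the UNC13 genes was 15.6 and 16.5 against 26.9 and 26.3 CPM per kb. RIMS3 alone gave 77.1% to 86.2% of the first sum and UNC13A 66.1% to 80.8% of the second.

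Complexins, small proteins that bind assembled SNAREs, changed in both directions, and all 3 tested members were called. These were 1 higher (33.3%, against 12.4% of all tested genes and 15.2% of protein-coding ones) and 2 lower (66.7%, against 12.5% and 13.9%). The differences from these shares were not tested. CPLX2 (ENSG00000145920, chr5:175796310-175884021, plus strand), the main form in chromaffin cells, was at 299 and 308 CPM in sh-Scb and 114 and 131 CPM in sh-SAPCD2 libraries. Its log2 fold change of −1.31 ± 0.11 (adjusted p = 0.00263) was the largest decrease among members. CPLX1, the main form at fast brain synapses, was at 38.3 and 43.5 against 18.9 and 27.2 CPM (log2 fold change −0.82 ± 0.20, adjusted p = 0.0302). CPLX3, known from ribbon synapses of the retina, was at 15.5 and 17.0 against 24.4 and 26.6 CPM (log2 fold change 0.65 ± 0.14, adjusted p = 0.022). The summed complexin level went from 66.7 and 70.9 to 36.4 and 43.6 CPM per kb, and the share of CPLX3 in it from 11.6% and 11.96% to 33.5% and 30.4%. The calls of CPLX1 and CPLX3 were lost without sh-Scb replicate 2, and that of CPLX3 also without sh-Scb replicate 1 (adjusted p over the alternatives up to 0.0977 and 0.254).

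**Figure D4:**
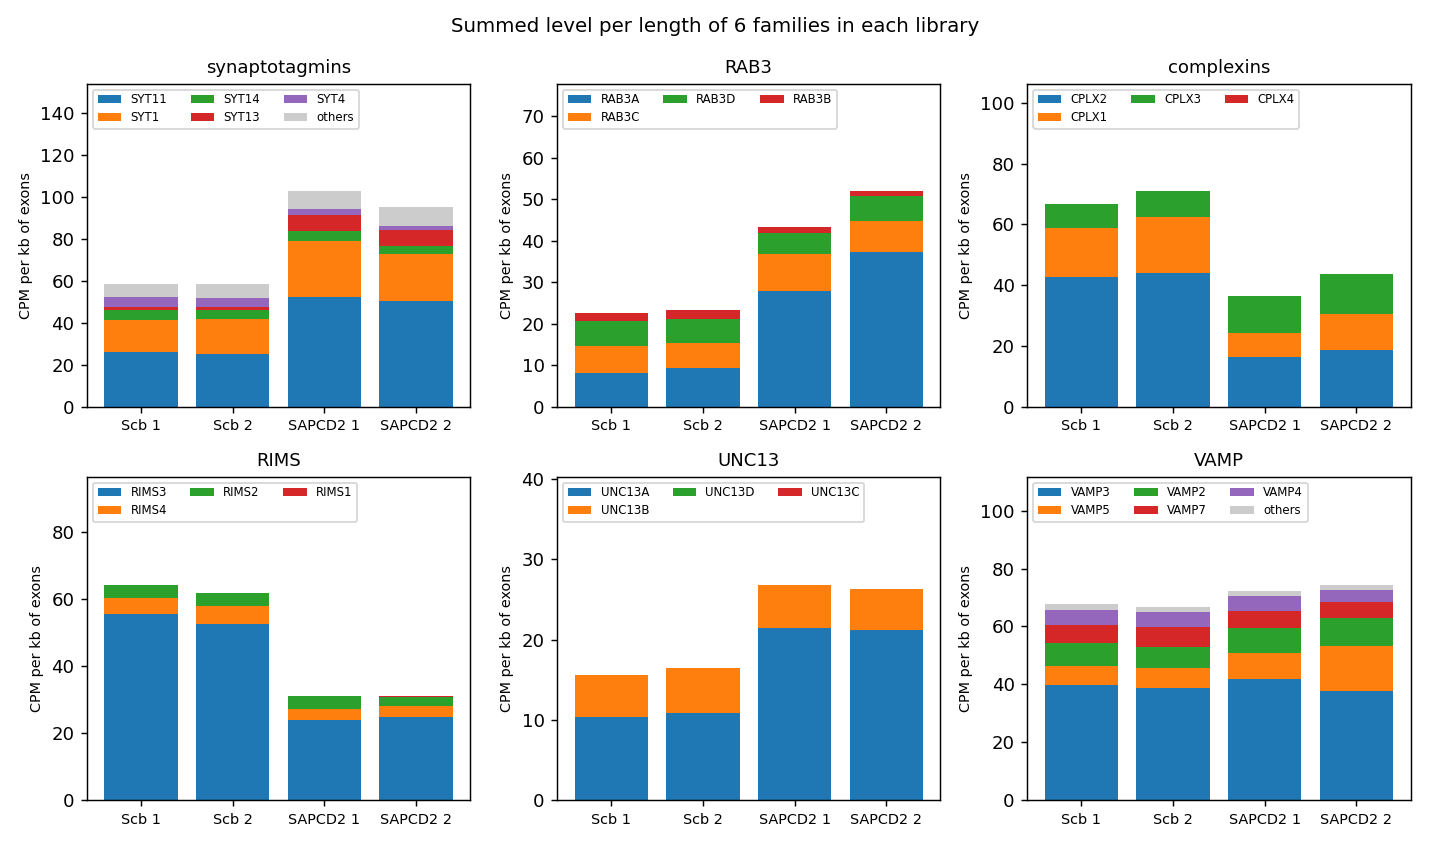
Summed level of 6 families in each library, in CPM per kb of merged exons (y axis), with stacked colors for the up to 5 genes with the largest shares. The synaptotagmin, RAB3 and UNC13 bars are taller in both sh-SAPCD2 libraries, the complexin and RIMS bars shorter, and the VAMP bars within 66.9 to 74.5 CPM per kb in all 4.

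Of 27 SNARE members 24 were tested, with a median log2 fold change of 0.15 and no DEG. Of these, 2 were higher (STX4 and STX5, 8.33%, against 12.4% of all tested genes and 15.2% of protein-coding ones). Another 1 was lower (STX2, 4.17%, against 12.5% and 13.9%). The differences from these shares were not tested. With all libraries kept, the counts ranged from 0 higher and 1 lower with no filter on low counts to 8 and 3. The latter came with the correction for GC content and length and the replicate block. The calls also changed when a library was left out. The 3 genes whose products form the synaptic fusion complex did not pass the test: SNAP25 was at 98.4 and 102 against 87.5 and 81.6 CPM (log2 fold change −0.25 ± 0.10, adjusted p = 0.134), VAMP2 at 26.8 and 25.1 against 29.8 and 33.4 CPM (0.29 ± 0.13, adjusted p = 0.169), and STX1A at 18.1 and 16.4 against 18.6 and 25.9 CPM (0.37 ± 0.19, adjusted p = 0.21). A p above the threshold does not show that these genes are unchanged, and leaving out a single sh-SAPCD2 library gave calls for SNAP25 (lower, without either one), and for VAMP2 and STX1A (higher, without replicate 1). The summed level of the VAMP genes was 67.9 and 66.9 CPM per kb in sh-Scb and 72.2 and 74.5 CPM per kb in sh-SAPCD2 libraries, and VAMP3 alone gave 50.8% to 58.5% of it.

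The syntaxins that passed act outside the neuronal complex. STX2 (epimorphin), a plasma membrane syntaxin of epithelial and many other cells, was at 71.7 and 74.3 CPM in sh-Scb and 41.8 and 36.8 CPM in sh-SAPCD2 libraries (log2 fold change −0.89 ± 0.12, adjusted p = 0.00595), and it had the highest level per length of the plasma membrane syntaxins in sh-Scb cells, at 15.7 CPM per kb. STX4, which serves regulated exocytosis in non-neuronal cells, was at 9.99 and 9.81 against 14.97 and 21.4 CPM (log2 fold change 0.88 ± 0.21, adjusted p = 0.0285). STX5, the syntaxin of transport from the endoplasmic reticulum to the Golgi, was at 26.2 and 23.4 against 34.5 and 42.9 CPM (log2 fold change 0.64 ± 0.16, adjusted p = 0.0319). STX4 and STX5 were both highest in sh-SAPCD2 replicate 2, and both calls were lost when either sh-Scb library was left out (adjusted p of 0.059 and 0.0725 for STX4 and 0.125 and 0.271 for STX5). The other 9 tested syntaxins of endosomes, Golgi and endoplasmic reticulum had log2 fold changes of −0.30 (STX16) to 0.70 (STX16-NPEPL1, a readthrough gene that shares exons with STX16) and none was called. STX10 differed more between the sh-SAPCD2 libraries (49.3 and 77.4 CPM) than between the groups.

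Vesicle membrane proteins were mixed. SV2A, a glycoprotein of all synaptic vesicles and the target of levetiracetam, was at 55.3 and 50.2 CPM in sh-Scb and 99.5 and 111 CPM in sh-SAPCD2 libraries (log2 fold change 0.99 ± 0.12, adjusted p = 0.00456), short of the DEG limit by less than its error. SV2C, the form prominent in basal ganglia, was at 29.2 and 28.5 against 37.1 and 29.4 CPM (adjusted p = 0.378). SYP, the most abundant vesicle membrane protein and a clinical marker of neuroendocrine tumors, was at 46.6 and 41.1 against 54.99 and 76.6 CPM (log2 fold change 0.59 ± 0.18, adjusted p = 0.0624). Both sh-SAPCD2 libraries were above both controls for SYP, replicate 2 by far the more, and it was called in 5 of the 13 alternatives. SYN1, whose promoter is printed above, fell from 18.9 and 17.4 to 12.05 and 11.97 CPM (log2 fold change −0.59 ± 0.14, adjusted p = 0.031, up to 0.298 over the alternatives), and its exons overlap those of ARAF (log2 fold change 0.11). SYN2 was at 45.4 and 40.1 against 48.2 and 47.3 CPM (adjusted p = 0.379) and SYN3 was under 4 CPM in every library.

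A list of 70 companion genes of the release pathway outside these families, compiled from general knowledge, was read from the same test. Of all tested genes 12.4% were higher and 12.5% lower, and of protein-coding ones 15.2% and 13.9%. Of the 57 companions tested, 10 were higher (17.5%) and 11 lower (19.3%), with a median log2 fold change of −0.03. The counts were 8 higher and 4 lower without sh-Scb replicate 1 and 7 and 3 without sh-Scb replicate 2, and no difference from the shares of all genes was tested. Cargo of dense-core granules had 8 tested genes. Of these, 3 were called higher (37.5%, against 12.4% of all tested genes) and 4 lower (50.0%, against 12.5%), also without a test of the difference. Of these 7, VGF, SCG2 and CHGB were called in all 13 alternatives. With either sh-Scb library left out, CHGB was the only cargo gene called lower, and SCG5 was not called without sh-Scb replicate 1. The peptide precursors VGF (103 and 95.4 against 326 and 480 CPM, log2 fold change 2.02 ± 0.19, adjusted p = 0.00313) and SCG2, secretogranin II (407 and 418 against 1136 and 952 CPM, log2 fold change 1.34 ± 0.12, adjusted p = 0.00263), rose, as did SCG5. Chromogranin B (CHGB, 612 and 598 against 346 and 335 CPM, log2 fold change −0.83), SCG3, the processing enzyme CPE and the scarce prohormone convertase PCSK1 (0.941 and 0.763 against 0.237 and 0.127 CPM) fell, and chromogranin A was at 761 and 736 against 576 and 730 CPM (adjusted p = 0.313).

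Among genes that act directly on SNAREs and RAB3, STXBP5 (tomosyn, which competes with VAMP2) was higher at 64.9 and 63.1 against 150 and 118 CPM (log2 fold change 1.07 ± 0.14, adjusted p = 0.00588). STXBP3, the Munc18 form that serves STX4, was lower at 26.9 and 24.1 against 13.6 and 11.5 CPM (log2 fold change −1.02 ± 0.16, adjusted p = 0.00858). NSF, the ATPase that takes spent SNARE complexes apart, was lower (21.4 and 20.1 against 13.8 and 10.9 CPM) and its adaptor NAPB higher (38.4 and 35.5 against 65.8 and 57.6 CPM). In the active zone list PPFIA3 (liprin-alpha-3) was higher, at 12.9 and 10.7 against 32.8 and 45.8 CPM (log2 fold change 1.74 ± 0.21, adjusted p = 0.00461), and the granule GTPase RAB27B was lower, at 65.2 and 67.4 against 32.6 and 25.9 CPM (log2 fold change −1.18 ± 0.15, adjusted p = 0.00512). PCLO and RAB3GAP1, the latter a subunit of the GTPase-activating complex for RAB3, were lower by smaller amounts. The calls of NSF, NAPB, PCLO and RAB3GAP1 were lost when either sh-Scb library was left out.

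Other companion DEGs were SYNGR2 (16.8 and 17.5 against 51.0 and 68.3 CPM) and SYNGR3 (1.77 and 1.20 against 3.28 and 4.43 CPM), relatives of synaptophysin, and SNCB (beta-synuclein, 0.76 and 0.436 against 1.58 and 3.63 CPM), all higher. SLC18A3, the vesicular acetylcholine transporter, was lower (3.37 and 3.78 against 1.74 and 1.15 CPM). The monoamine transporters SLC18A1 and SLC18A2 were between 4.03 and 7.10 CPM in every library and were not called, and the glutamate and GABA transporters SLC17A6, SLC17A7, SLC17A8 and SLC32A1 stayed under 0.6 CPM. Calls of SYNGR3, SNCB, SLC18A3 and PCSK1, all of which were under 5 CPM, were lost in 2 to 5 alternatives.

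**Figure D5:**
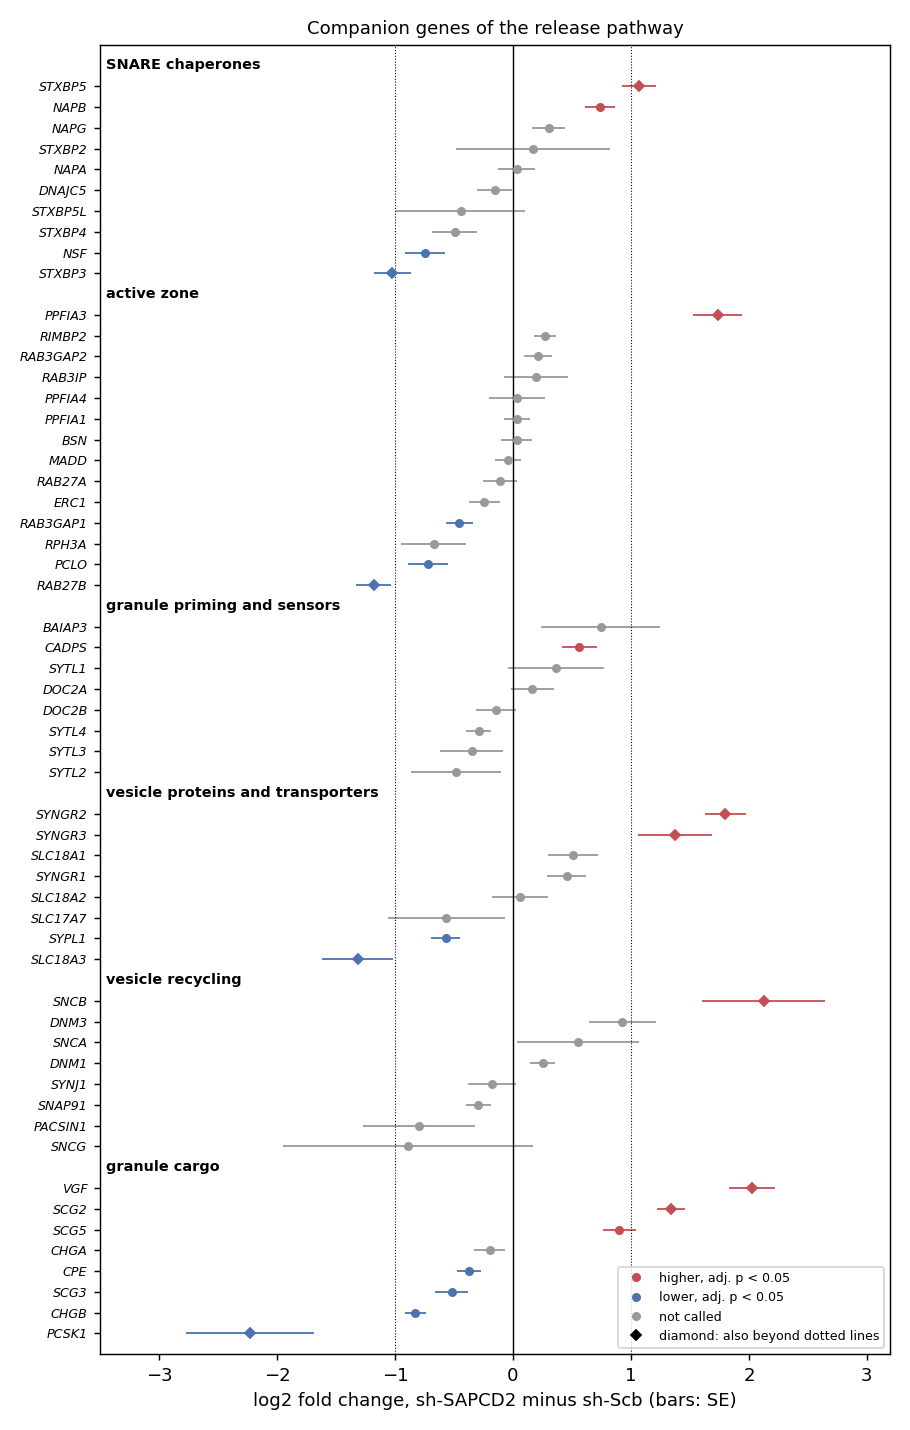
Log2 fold change (x axis, sh-SAPCD2 minus sh-Scb) with its standard error for tested companion genes (y axis), grouped by role and colored as in the plot of the members. VGF and SCG2 lie on the higher side and PCSK1, CHGB, SCG3 and CPE on the lower side of the granule cargo group, while 7 of 8 genes of the granule priming group and of the recycling group were not called.

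The 7-mers named with the hairpin above occurred in members of every call. At least 1 of the 4 was present in the canonical 3′ untranslated region of 6 of the 8 members called lower (75%), 5 of the 12 called higher (41.7%) and 19 of the 38 not called (50.0%), with median lengths of 2436, 2586 and 2520.5 bases. Over protein-coding tested genes the shares were 47.0% of those called lower, 27.2% of those called higher and 32.8% of those not called, with shorter median lengths of 1579, 1356.5 and 1302 bases. Besides CPLX2 and RIMS3, the lower members RIMS4 (3 separate matches), CPLX1, SYN1 and SYT4 (1 each) held a match, and STX2 and SYT9 held none. The higher members SYT7 (3 separate matches), SYT2 and CPLX3 (2 each), SYT11 and SYT13 (1 each) also did, and RAB3A, UNC13A, SV2A, SYT1, SYT5, STX4 and STX5 did not. RAB3B held 6 and just missed the call in the edgeR test as reported (log2 fold change −0.55 ± 0.16, adjusted p = 0.0518). Most alternatives called it lower. Whether the sites bear on any of these levels was not tested.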

How the data were processed

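Total RNA of SK-N-BE(2) cells was sequenced, with 2 sh-Scb and 2 sh-SAPCD2 libraries made with an Illumina TruSeq kit. The authors aligned paired-end reads to hg38 with HISAT2 2.2.0 and estimated abundances with StringTie, and deposited whole-number counts per Ensembl gene that were not normalized. The step from abundances to counts, the annotation release and the use of strand are not given in the sources used here. Nor is the treatment of reads with several matches. Overlapping genes are therefore named beside the results of RAB3A, SYT2, SYT9 and SYN1. Exons of CPLX3, STX2, RIMS4, SYT1, SYT7 and SYT13 also overlap those of other genes, all at 0.701 CPM or less in every library. Overlaps of companions and of members that were not called are mostly not named.

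Members were joined to the table by Ensembl identifier through GENCODE 44. TMM scaling and the quasi-likelihood fit came from edgeR 4.0.16 (R 4.3.3), on the 18779 genes left by filterByExpr (minimum count 10, minimum total 15), with Benjamini-Hochberg adjustment over all of them. A gene was called at adjusted p under 0.05 and was a DEG with an absolute log2 fold change over 1 in addition. Standard errors were taken from the same fit. Levels per length are TMM-scaled CPM divided by merged exon length. The members, the companion and marker lists and the tests were chosen with earlier results of these data known. Genes named are 13 core release genes, every called member, the member of each role with the highest level per length, companion DEGs and SAPCD2, and other genes were named after their values were seen. Sums over families are given per library and were not tested. An exact permutation test of 2 against 2 libraries allows no p below 0.333. The fits were tested on simulated counts. As alternatives, calls were also made with DESeq2 1.42.0, in edgeR with that tool's size factors or with library totals, without the filter or with genes averaging 1 CPM or more, with a replicate block, with correction for GC content and length with and without the block, among protein-coding genes alone, and with each library removed in turn, and lengths were also taken from canonical transcripts. A few further genes are not reported here.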

Additional observations from a re-analysis of the deposited data

How the results depend on the processing

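Of the 20 members called, 8 were called in each of the 13 alternatives and 12 were not called in at least 1. The number called higher (12 as reported) was 5 with no filter on low counts, 19 with the correction for GC content and length, 19 with that correction and the replicate block, and 5 to 19 with a library left out. The number called lower (8 as reported) was 4 with no filter and 4 to 13 with a library left out. DEGs numbered 4 higher and 2 lower as reported, 2 higher with library totals or protein-coding genes only, and 4 to 7 higher and 2 to 4 lower with a library left out. Without sh-SAPCD2 replicate 1 there were 7 higher DEGs, and without sh-SAPCD2 replicate 2 there were 4 lower ones. Companion genes called lower (11 as reported) were 3 with no filter, 17 with the correction for GC content and length, and 3 to 16 with a library left out. SAPCD2 had a log2 fold change of −0.91 with no filter, at an adjusted p of 0.0749 (range over its alternatives 2.48e-05 to 0.0749). With no filter many scarce genes enter the adjustment, and leaving out a library leaves fewer samples.

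The fit with the replicate block gave 16 higher and 9 lower members. The labels do not say that the replicate numbers pair libraries, the deviations of same-numbered libraries correlated at −0.02, and the block is therefore only an alternative. Another scaling changed the median of the members by little (0.20 with DESeq2 size factors and 0.19 with library totals). The number of members at 1 CPM per kb or more was 47, and also 47 per kb of the canonical transcript.

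Changes of sign were scored for the core release genes, called members, the highest member of each role, companion DEGs and SAPCD2. Among these, signs turned only for genes close to 0 that were not called as reported. The other members were not scored. RIMS1 ranged from −0.11 (without sh-Scb replicate 1) to 0.55 with a library left out, and was −0.10 without sh-SAPCD2 replicate 2. VAMP3 was at −0.0085 with protein-coding genes only and ranged from −0.058 to 0.092 with a library left out, the lowest without sh-SAPCD2 replicate 1. SNAP29 was at −0.0098 with library totals, −5.5e-05 with a mean of at least 1 CPM and −0.020 with protein-coding genes only, and ranged from −0.045 to 0.057 with a library left out, the lowest without sh-SAPCD2 replicate 2. STX10 was at −0.015 with library totals, −0.0042 with a mean of at least 1 CPM, −0.029 with the replicate block, −0.27 with the correction for GC content and length (−0.27 with the block too) and −0.026 with protein-coding genes only, and ranged from −0.36 (without sh-SAPCD2 replicate 2) to 0.29 with a library left out. For STX10 the adjusted p was 0.0404 with the correction for GC content and length and 0.0226 without sh-SAPCD2 replicate 2, which called it lower, and 0.0269 without sh-SAPCD2 replicate 1, which called it higher, in a range of 0.0226 to 1.0. The call and direction of STX10 thus depended on which sh-SAPCD2 library was left out. Depth limits the 10 members that were not tested and RIMS1, SYT6 and SYT17, which lie near 1 CPM.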
